A study of Mus musculus with 12 samples.

Results

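STAT transcription factors and the Janus kinases (JAKs) that activate them were followed by their transcripts in cells of the mouse peritoneal lavage. The members were the rows with the symbols Stat2, Stat3, Stat4, Stat5a, Stat5b, Stat6, Jak1, Jak2 and Jak3, 9 of 21851 genes, chosen by symbol and not by level. Other genes of the 2 families were not analysed here. The mice were C57BL/6J, either wild type or lactoferrin knockout (Ltf encodes lactoferrin, an iron-binding protein of neutrophil granules), and were injected intraperitoneally with PBS or with lipopolysaccharide from bacteria (LPS). Each of the 4 groups held 3 libraries, and the series asks how loss of lactoferrin alters gene expression in LPS inflammation. The sources used here do not give the dose, the time to lavage, the age and sex of the mice, the knockout allele or whether each library came from its own mouse. The p-values therefore measure the spread between these libraries.

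Cytokine receptors of this pathway have no kinase of their own and carry Janus kinases on their tails. Binding of a cytokine lets the kinases phosphorylate the receptor and then a STAT, which pairs with another STAT and enters the nucleus to bind DNA. In macrophages STAT2 acts downstream of type I interferon, STAT3 downstream of IL-6 and IL-10, STAT5 downstream of GM-CSF and STAT6 downstream of IL-4 and IL-13. Activity of these proteins is set by phosphorylation, which transcript levels do not measure.

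Values are in FPKM, fragments scaled by transcript length and library size, so that genes of different length can be compared. Library totals lay between 343874 and 388129 FPKM, and the estimated depth of the other 11 libraries relative to wild-type PBS replicate 1 was 0.925 to 0.990. Every knockout library had less Ltf than every wild-type library under the same treatment, at 0.183 to 0.258 against 1.16 to 1.89 FPKM under PBS and 0.0699 to 0.117 against 0.176 to 1.33 FPKM under LPS, levels too low to be tested. Wild-type PBS replicate 3 stood apart, with rank correlations of 0.949 and 0.934 with the other libraries of its group, against at least 0.973 for all other pairs within a group. Wild-type LPS replicate 2 and knockout LPS replicate 1 held 2241 and 1895 FPKM of summed erythroid transcripts, against at most 334 elsewhere. The markers of large peritoneal macrophages were all listed above 0 in every group, 11 of 11, with sums of 1533 to 5771 FPKM. Neutrophil, monocyte, B cell, T cell, natural killer cell, mast cell and dendritic cell transcripts were also present, so the members' levels are those of a mixture, in which fewer cells of a type and less RNA per cell cannot be told apart.

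The stretches before starts of Stat2, Stat4 and Stat6 are shown because they held an interferon motif or an NF-kappaB motif. The sequences are 250 bases directly before an annotated start, from RefSeq on GRCm38.p6, printed 5′ to 3′ along the plus strand, the strand of all 3 genes. Capitals mark the match. Stat2 (chr10:128270248-128270497) held an interferon-stimulated response element, GAAA followed after any 2 bases by GAAA. It lay on the minus strand at positions -222 to -213 from the start. Stat4 has a second start inside the gene, and its window (chr1:52007990-52008239) held the same motif at positions -97 to -88. Stat6 (chr10:127642736-127642985) held an NF-kappaB motif, GGGA followed after any 4 bases by CC, at positions -20 to -11. Motifs were searched on both strands, and the matches shown do not overlap another motif searched.
Stat2: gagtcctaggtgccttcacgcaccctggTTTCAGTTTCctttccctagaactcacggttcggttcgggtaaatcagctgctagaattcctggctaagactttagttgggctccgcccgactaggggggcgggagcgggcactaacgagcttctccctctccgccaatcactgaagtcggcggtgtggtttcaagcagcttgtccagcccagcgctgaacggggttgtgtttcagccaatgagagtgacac
Stat4, second start: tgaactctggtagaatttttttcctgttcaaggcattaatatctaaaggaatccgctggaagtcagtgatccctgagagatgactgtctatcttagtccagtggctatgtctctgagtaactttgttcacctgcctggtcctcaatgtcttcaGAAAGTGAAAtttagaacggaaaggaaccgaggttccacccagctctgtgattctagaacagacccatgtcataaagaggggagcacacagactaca
Stat6: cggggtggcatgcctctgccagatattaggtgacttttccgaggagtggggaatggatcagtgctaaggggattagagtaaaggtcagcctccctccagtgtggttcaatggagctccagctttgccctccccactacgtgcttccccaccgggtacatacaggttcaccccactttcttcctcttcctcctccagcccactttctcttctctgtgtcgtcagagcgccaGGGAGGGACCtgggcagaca
All 9 members had entries, with 12 windows in all. The interferon element was in 2 of these 12 windows, the NF-kappaB motif in 2 (Stat6 and a second start of Stat5a) and the STAT motif TTCNNNGAA in 0. Over 32851 windows of all genes the shares were 2.98%, 17.6% and 7.02%. A match here is a stretch of letters and was not tested as a binding site.

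Under LPS the STAT genes went in opposite directions. Stat2 and Stat3 rose in both genotypes, while Stat5b, Stat6 and Jak3 fell in both. Stat5a rose in wild type only by a narrow margin. Jak1, Jak2 and Stat4 did not pass the test in either genotype. In wild type 6 of 9 members passed (adjusted p under 0.05, limma on log2(FPKM + 1)), against 62.2% of the 9841 genes tested. Of these, 3 were higher (24.8% of all genes) and 3 lower (37.4%). In the knockout 5 of 9 passed, against 53.2% of all genes, with 2 higher (19.9% of all genes) and 3 lower (33.3%). These shares are close to those of all genes, so the number of members that moved is no result about the family. Members' log2 changes had a median of 0.30 in wild type and -0.04 in the knockout, against -0.11 and -0.12 over all genes.

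**Figure D1:**
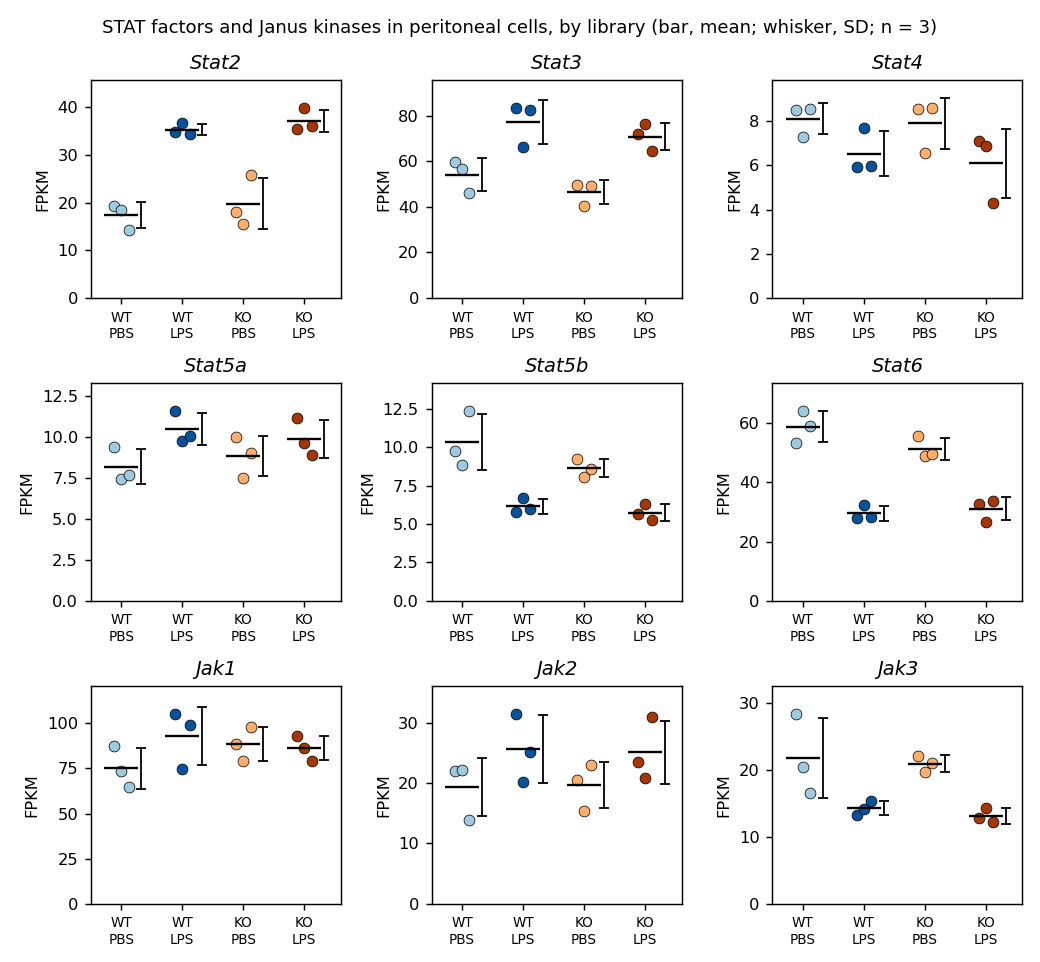
FPKM of the 9 genes in each library, by group (WT, wild type; KO, lactoferrin knockout); points are libraries 1, 2 and 3 from left to right, the bar is the mean and the whisker the SD (n = 3). Stat2 was at 14.2 to 25.7 FPKM in the 6 PBS libraries and at 34.4 to 39.8 FPKM in the 6 LPS libraries, and Stat6 went from 49.0 to 64.1 FPKM down to 26.6 to 33.9 FPKM.

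Stat2, the partner of IRF9 in the complex that carries the type I interferon signal, lies at chr10:128270559-128292849 on the plus strand (GRCm38). Its level in wild type was 19.2, 18.5 and 14.2 FPKM in the 3 PBS libraries and 34.7, 36.6 and 34.4 FPKM in the 3 LPS libraries. In the knockout it was 18.0, 15.5 and 25.7 FPKM under PBS and 35.4, 39.8 and 36.01 FPKM under LPS. All 6 LPS libraries stood above all 6 PBS libraries, and knockout PBS replicate 3 was the highest of the PBS libraries. Mean levels went from 17.3 ± 2.71 to 35.3 ± 1.20 FPKM in wild type (SD, n = 3), a log2 change of 0.997 ± 0.16 (SE; limma adjusted p = 0.000326). In the knockout the change was 0.90 ± 0.16 (limma adjusted p = 0.000882).

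Stat3, the main STAT of the IL-6 and IL-10 receptors, was the highest or next to highest STAT in every group (chr11:100885098-100939540, minus strand). Wild-type libraries held 59.6, 56.7 and 46.2 FPKM under PBS and 83.3, 66.1 and 82.5 FPKM under LPS. Knockout libraries held 49.4, 40.5 and 49.3 FPKM under PBS and 71.9, 76.3 and 64.3 FPKM under LPS. Treatments did not overlap in either genotype, and the lowest wild-type LPS library was replicate 2, which was rich in erythroid transcripts. Stat3 rose by a log2 change of 0.51 ± 0.14 in wild type (SE; limma adjusted p = 0.00794) and 0.60 ± 0.14 in the knockout (limma adjusted p = 0.00371), against 0.997 and 0.90 for Stat2.

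Stat6, the STAT of IL-4 and IL-13 and of the alternative state of macrophages, had the largest fall of the members in both genotypes. It lies on the same chromosome as Stat2, 609.602 kb away (chr10:127642986-127660957, plus strand). Its level was 53.4, 64.1 and 59.0 FPKM in wild type under PBS and 28.03, 32.3 and 28.1 FPKM under LPS. In the knockout it was 55.7, 49.0 and 49.4 FPKM under PBS and 32.9, 26.6 and 33.9 FPKM under LPS. Every LPS library lay below every PBS library, with a gap between 33.9 and 49.0 FPKM. The log2 change was -0.97 ± 0.12 in wild type (SE; limma adjusted p = 4.62e-05) and -0.71 ± 0.12 in the knockout (limma adjusted p = 0.000539). Stat6 shares 40 exon bases, 0.91% of its own, with Nab2 on the opposite strand, whose mean also went from 24.1 to 4.03 FPKM in wild type. The use of strand in the counting is not given, so reads of that stretch cannot be assigned.

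Stat5a and Stat5b encode near-identical factors of GM-CSF, IL-2 and IL-7 signalling and sit 8.627 kb apart on chromosome 11, head to head (Stat5b at 100780731 to 100850724 on the minus strand, Stat5a at 100859351 to 100885169 on the plus strand). Stat5b was at 9.79, 8.84 and 12.4 FPKM in wild type under PBS and at 5.76, 6.71 and 6.01 FPKM under LPS. In the knockout Stat5b was at 9.26, 8.08 and 8.58 FPKM under PBS and at 5.69, 6.33 and 5.24 FPKM under LPS. Stat5b fell without overlap in both genotypes, by 0.65 ± 0.12 in wild type (log2, SE; limma adjusted p = 0.00064) and by 0.52 ± 0.12 in the knockout (limma adjusted p = 0.00371).

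Stat5a did not follow its neighbour. Wild-type libraries held 9.42, 7.46 and 7.70 FPKM under PBS and 11.6, 9.78 and 10.0 FPKM under LPS, so the treatments just failed to overlap. Knockout libraries overlapped, at 9.99, 7.53 and 9.03 FPKM under PBS and 11.2, 9.65 and 8.91 FPKM under LPS. The log2 change of Stat5a was 0.32 ± 0.13 in wild type (SE; limma adjusted p = 0.0431) and 0.15 ± 0.13 in the knockout (95% interval -0.13 to 0.43; limma adjusted p = 0.336). Leaving out wild-type PBS replicate 3 ended the wild-type call, at 0.29 (limma adjusted p = 0.104), and without the 2 libraries rich in erythroid transcripts it was 0.37 (limma adjusted p = 0.0525). It was lost as well when wild-type PBS replicate 2, any wild-type LPS library, knockout PBS replicate 3 or knockout LPS replicate 2 was left out, with limma adjusted p of 0.0198 to 0.145 over the single libraries. The ratio of Stat5a to Stat5b was 0.809 ± 0.172 in wild type and 1.02 ± 0.0782 in the knockout under PBS, and 1.71 ± 0.28 and 1.73 ± 0.222 under LPS (SD, n = 3). No PBS library was above 1.08 and no LPS library was below 1.46. Since 8.21% of the 50-base windows of Stat5a also occur in Stat5b, and 10.98% in the reverse direction, a small part of the reads could belong to either gene. The 3′ ends of Stat5a and Stat3 overlap by 72 exon bases on opposite strands, 0.76% of the exon bases of Stat3.

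Stat4, which carries IL-12 signals in T and natural killer cells, was among the lowest members (chr1:51987148-52107189, plus strand). It held 8.51, 7.30 and 8.54 FPKM in wild type under PBS and 5.94, 7.70 and 5.97 FPKM under LPS. In the knockout it held 8.54, 6.57 and 8.59 FPKM under PBS and 7.09, 6.88 and 4.29 FPKM under LPS. The treatments overlapped in both genotypes. Neither difference passed the test, at -0.28 ± 0.17 in wild type (log2, SE; 95% interval -0.65 to 0.09; limma adjusted p = 0.166) and -0.35 ± 0.17 in the knockout (-0.71 to 0.02; limma adjusted p = 0.104). The value is uncertain because 26.68% of the exon bases of Stat4 also belong to the annotated gene Gm28177 on the same strand. Of 9 tested T cell markers 8 fell in wild type, and 4 fell and 1 rose in the knockout, with sums of the 10 listed of 81.2 to 142 FPKM in the 6 PBS libraries and 15.6 to 32.2 FPKM in the 6 LPS libraries, and none of the 10 was at 0 in a whole group. Most of the T cell sum under PBS was a single gene, Cd2, at means of 92.6 FPKM in wild type and 72.9 FPKM in the knockout. Under LPS Cd2 averaged 8.63 and 6.55 FPKM. Natural killer cell markers were mixed, with 3 of 6 lower in wild type and 1 higher and 1 lower in the knockout. Over all genes 37.4% fell in wild type, and 33.3% fell and 19.9% rose in the knockout. The part of these cells in the values of Stat4 was not tested.

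Jak3, the kinase that pairs with the common gamma chain Il2rg and is found mostly in blood cells, was the kinase that fell (chr8:71676296-71690575, plus strand). Its wild-type levels were 28.4, 20.4 and 16.6 FPKM under PBS and 13.3, 14.2 and 15.4 FPKM under LPS. Knockout levels were 22.2, 19.7 and 21.0 FPKM under PBS and 12.84, 14.4 and 12.2 FPKM under LPS. Treatments did not overlap in either genotype, and the closest were wild-type PBS replicate 3 at 16.6 FPKM and wild-type LPS replicate 3 at 15.4 FPKM. Jak3 fell by 0.55 ± 0.16 in wild type (log2, SE; limma adjusted p = 0.0102) and by 0.64 ± 0.16 in the knockout (limma adjusted p = 0.00538). Of its exon bases 7.55% are shared with Insl3 on the same strand, a gene listed at no more than 1.1e-06 FPKM in these libraries.

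Jak1, the kinase shared by interferon, IL-6, IL-10 and common gamma chain receptors, had the highest mean of the members in every group (chr4:101152367-101265282, minus strand). It was at 87.3, 73.4 and 64.5 FPKM in wild type under PBS and at 105, 74.8 and 99.1 FPKM under LPS. In the knockout it was at 88.4, 79.2 and 98.1 FPKM under PBS and at 92.9, 86.6 and 79.3 FPKM under LPS. Treatments overlapped in both genotypes, and the low library among the wild-type LPS ones was again replicate 2. The log2 difference was 0.30 ± 0.16 in wild type (SE; 95% interval -0.04 to 0.64; limma adjusted p = 0.111) and -0.04 ± 0.16 in the knockout (-0.38 to 0.31; limma adjusted p = 0.862). Without the 2 libraries rich in erythroid transcripts the wild-type value was 0.45 and passed the test (limma adjusted p = 0.0359), while with wild-type PBS replicate 3 left out it was 0.20 (limma adjusted p = 0.303).

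Jak2, the kinase of the GM-CSF, IL-12 and interferon gamma receptors, had the largest SE of the members (chr19:29251828-29313080, plus strand). Its wild-type levels were 21.9, 22.2 and 13.9 FPKM under PBS and 31.5, 20.2 and 25.1 FPKM under LPS. In the knockout they were 20.5, 15.5 and 22.9 FPKM under PBS and 23.5, 20.8 and 31.0 FPKM under LPS. Groups overlapped, and the log2 differences of 0.39 ± 0.22 in wild type (SE; 95% interval -0.10 to 0.88; limma adjusted p = 0.145) and 0.34 ± 0.22 in the knockout (-0.15 to 0.83; limma adjusted p = 0.226) did not pass the test. The intervals include no change and also a rise as large as that of Stat3, so Jak2 cannot be called unaltered.

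Treatments did not overlap for 6 of 9 members in wild type and 5 of 9 in the knockout, against 66.2% and 66% of all genes tested. Wild-type PBS replicate 3 held the lowest value of its group for Stat2, Stat3, Jak1, Jak2 and Jak3 and the highest for Stat5b. Without it, the wild-type change was 0.87 for Stat2, 0.40 for Stat3, -0.53 for Stat5b, -0.97 for Stat6 and -0.72 for Jak3 (log2), and all 5 passed the test.

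**Figure D2:**
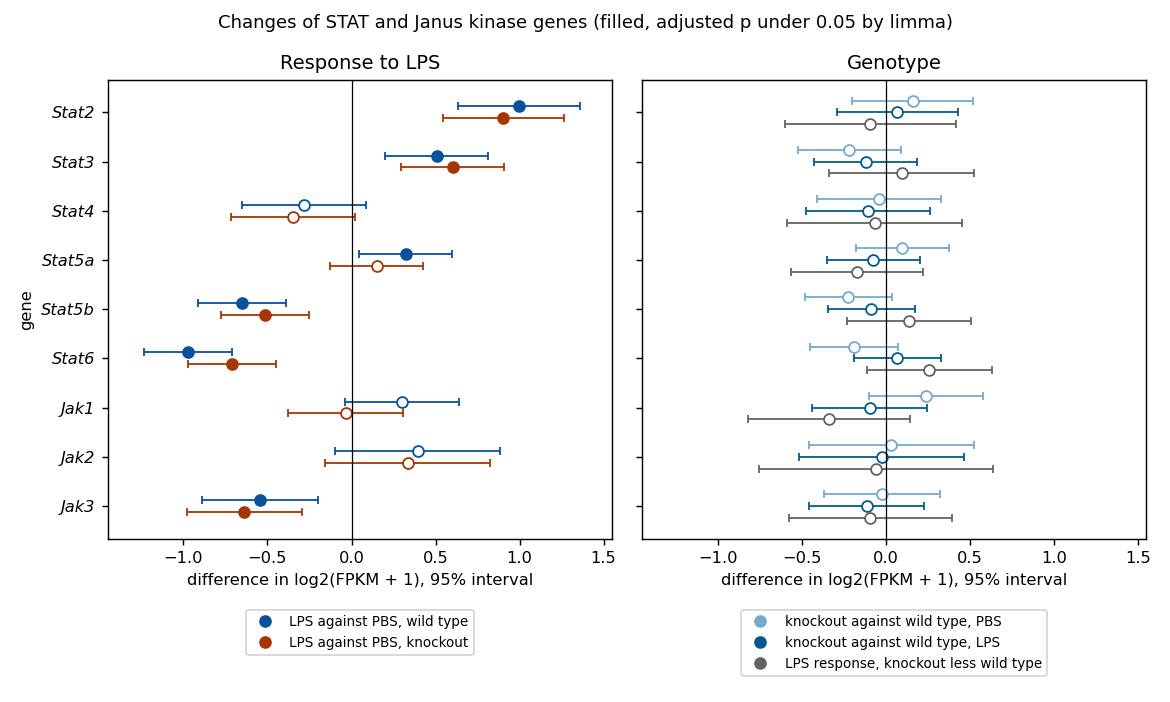
Differences in log2(FPKM + 1) with 95% intervals from limma, for LPS against PBS in each genotype (left) and for knockout against wild type under each treatment and the difference between the LPS responses (right); filled points have an adjusted p under 0.05. Filled points occur only on the left, from -0.97 (Stat6) to 0.997 (Stat2), while all differences on the right have intervals that include 0.

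The order of the genes by level changed with the treatment. Under PBS in wild type Jak1 stood first and did not overlap with Stat6 and Stat3, which overlapped each other at 58.8 ± 5.33 and 54.2 ± 7.06 FPKM (SD, n = 3). Jak3, Jak2 and Stat2 followed at means of 17.3 to 21.8 FPKM with overlapping ranges, and Stat5b, Stat5a and Stat4 came last at 8.12 to 10.3 FPKM. Under LPS in wild type Stat3 reached 77.3 ± 9.69 FPKM and overlapped with Jak1. Stat2 stood next at 35.3 ± 1.20 FPKM, above Stat6 at 29.5 ± 2.44 FPKM and without overlap. In the knockout under LPS Jak1 and Stat3 did not overlap, at 86.3 ± 6.81 and 70.8 ± 6.09 FPKM. In the knockout under PBS Jak1 again stood first without overlap. Stat6 and Stat3 overlapped each other, as did neighbours among Jak3, Stat2 and Jak2 and among Stat5a, Stat5b and Stat4, with no overlap between these sets.

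Expressed as shares of the summed FPKM of the 6 STAT genes measured, the mixture turned from one led by Stat6 and Stat3 to one led by Stat3 and Stat2. Stat6 made up 37.5 ± 3.6% in wild type and 36.1 ± 2.94% in the knockout under PBS, and 17.9 ± 2.08% and 19.4 ± 3.11% under LPS (SD, n = 3). Stat2 made up 11 ± 1.25% and 13.7 ± 2.88% under PBS and 21.4 ± 1.42% and 23.1 ± 1.32% under LPS. For Stat3 the mean share went from 34.4 ± 3.04% to 46.7 ± 4.48% in wild type. The summed FPKM of the 6 genes itself lay between 127 and 163 under PBS and between 153 and 169 under LPS. Shares of one sum are not independent of each other, and they say nothing of the other STAT family members.

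**Figure D3:**
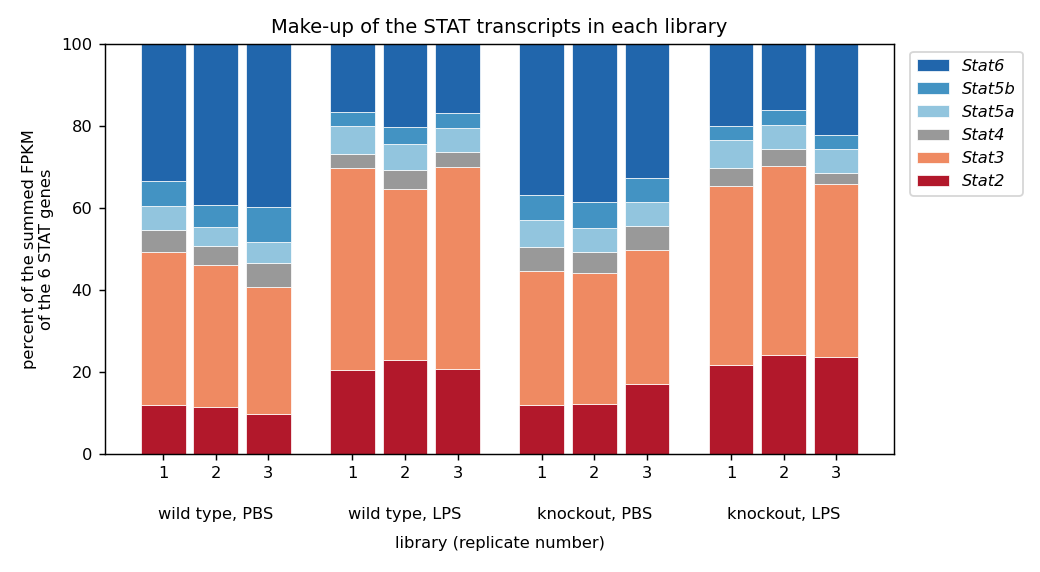
Share of each of 6 STAT genes in their summed FPKM, as stacked bars adding to 100% for each library, by group and replicate number. The Stat6 share was 32.8% to 39.9% in the PBS libraries and 16.1% to 22.2% in the LPS libraries, with no overlap.

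The knockout was compared with wild type under each treatment. Under PBS 0 of 9 members passed the test, against 0.112% of all genes, and 0 of 9 had an unadjusted p under 0.05. Log2 differences lay between -0.22 (Stat5b, 95% interval -0.48 to 0.04) and 0.24 (Jak1, -0.10 to 0.58), with limma adjusted p from 0.574 to 0.973. Under LPS 0 of 9 passed, against 0% of all genes, again with 0 of 9 at an unadjusted p under 0.05. Differences there lay between -0.12 (Stat3, 95% interval -0.43 to 0.18) and 0.07 (Stat6, -0.19 to 0.33), with limma adjusted p from 0.864 to 0.986. The genotypes overlapped for every member, so 0 of 9 were free of overlap under either treatment, against 13.4% of all genes under PBS and 15.4% under LPS. With 3 libraries a group these intervals include differences as large as 0.58 under PBS and -0.52 under LPS on the log2 scale. Markers of T cells and natural killer cells differed beside them under PBS, while those of B cells overlapped. Of 10 tested B cell markers 0 were free of overlap and 0 passed, with a median of -0.17 (log2). All 9 tested T cell markers and 4 of 6 natural killer cell markers were lower in the knockout without overlap, with medians of -0.79 and -0.84 (log2), and 1 of them passed, Klrd1 (-0.93; limma adjusted p = 0.0479), which is named after its values were seen. Summed T cell markers were at 132 to 142 FPKM in wild type and 81.2 to 104 FPKM in the knockout. Most of that sum was a single gene, Cd2, at means of 92.6 FPKM in wild type and 72.9 FPKM in the knockout. Under LPS 7 of 8 tested neutrophil markers were higher in the knockout without overlap and 0 lower, with a median of 1.93 (log2). Mast cell markers had 5 of 8 lower without overlap and 1 higher, with a median of -0.40. Of these neutrophil and mast cell markers 0 passed the test. The part of these cell types in the values of Stat4, Jak3 or the other members was not tested.

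The difference between the 2 LPS responses was tested for each member, and 0 of 9 passed, against 0.0406% of all genes, with 0 of 9 at an unadjusted p under 0.05. Stat6 fell less in the knockout by 0.26 ± 0.17 (log2, SE; 95% interval -0.11 to 0.63) and the Jak1 response was lower there by a log2 difference of -0.34 ± 0.22 (-0.82 to 0.14), the extremes of the 9. The limma adjusted p-values ranged from 0.632 to 0.964. The wild-type call for Stat5a and its absence in the knockout therefore do not show a difference between the genotypes.

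The genes around the STAT factors were grouped into 8 lists of ligands, receptor subunits, inhibitors and target genes, holding 135 genes, of which 111 were tested. In wild type 38 of the 111 rose and 38 fell under LPS, where 24.8% and 37.4% of all genes did. In the knockout 45 rose and 25 fell, against 19.9% and 33.3% of all genes. Some genes stood in more than one list, 11 in all, so the lists are not independent, and the targets were listed from general knowledge and not from binding in these cells. The 2 LPS comparisons have no library in common.

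Cytokine ligands had the highest median change of the 8 lists, 2.23 in wild type and 2.20 in the knockout (log2). Only 9 of the 23 listed ligands averaged 1 FPKM or more and were tested. Csf3 and Ifng averaged under 1 FPKM in both PBS groups and passed this filter through their LPS libraries. The filter thus favours ligands that are high under LPS, and the median holds only for the ligands tested. Of 9 tested, 6 rose and 1 fell in wild type, and 6 rose and 0 fell in the knockout. Over all genes 24.8% and 19.9% rose. Csf3, the granulocyte growth factor that signals through STAT3, went from 0.601 ± 0.37 to 42.9 ± 9.69 FPKM in wild type (SD, n = 3; log2 change 4.78 ± 0.22 SE). Il6 rose from 36.7 ± 24.2 to 239 ± 123 FPKM, and Il10, the anti-inflammatory cytokine, from 3.91 ± 1.88 to 23.1 ± 9.56 FPKM. Ifng rose from 0.873 ± 0.57 to 9.85 ± 2.81 FPKM.

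Of 26 receptor subunits 3 rose and 14 fell in wild type with a median of -0.55. Over all genes, too, falls outnumbered rises, at 37.4% and 24.8%. In the knockout 5 rose and 10 fell with a median of -0.14, close to the 19.9% and 33.3% of all genes. Il2ra and Il15ra, the private chains for IL-2 and IL-15, rose in wild type from 5.46 ± 1.93 to 39.8 ± 4.86 FPKM and from 4.31 ± 2.43 to 27.0 ± 3.07 FPKM. Il6ra, the binding chain for IL-6, fell from 25.6 ± 3.84 to 7.31 ± 1.13 FPKM (log2 change -1.68 ± 0.24; limma adjusted p = 0.000115), and Lifr fell from 8.32 ± 3.72 to 1.63 ± 0.144 FPKM. In the knockout Il2ra, Il15ra, Il6ra and Lifr moved likewise, with log2 changes of 3.46, 2.80, -1.13 and -1.76.

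Inhibitors of the pathway were split, with 5 of 18 higher and 8 lower in wild type (median -0.02) and 7 higher and 7 lower in the knockout (median -0.04). Of all genes 24.8% were higher and 37.4% lower in wild type, and 19.9% and 33.3% in the knockout. Those named that rose were feedback inhibitors. Socs1, which blocks Janus kinases, went from 21.6 ± 5.96 to 81.6 ± 10.1 FPKM in wild type, Socs3, which blocks signalling of the IL-6 receptor, from 153 ± 54.8 to 354 ± 56.2 FPKM, and Usp18, which restrains the interferon receptor, from 11.9 ± 3.08 to 66.5 ± 11 FPKM. Ptpn6, the phosphatase SHP-1, fell from 144 ± 6.87 to 42.7 ± 2.61 FPKM (log2 change -1.73 ± 0.15; limma adjusted p = 5.23e-06). All 4 moved in the same direction in the knockout, where they also passed the test.

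**Figure D4:**
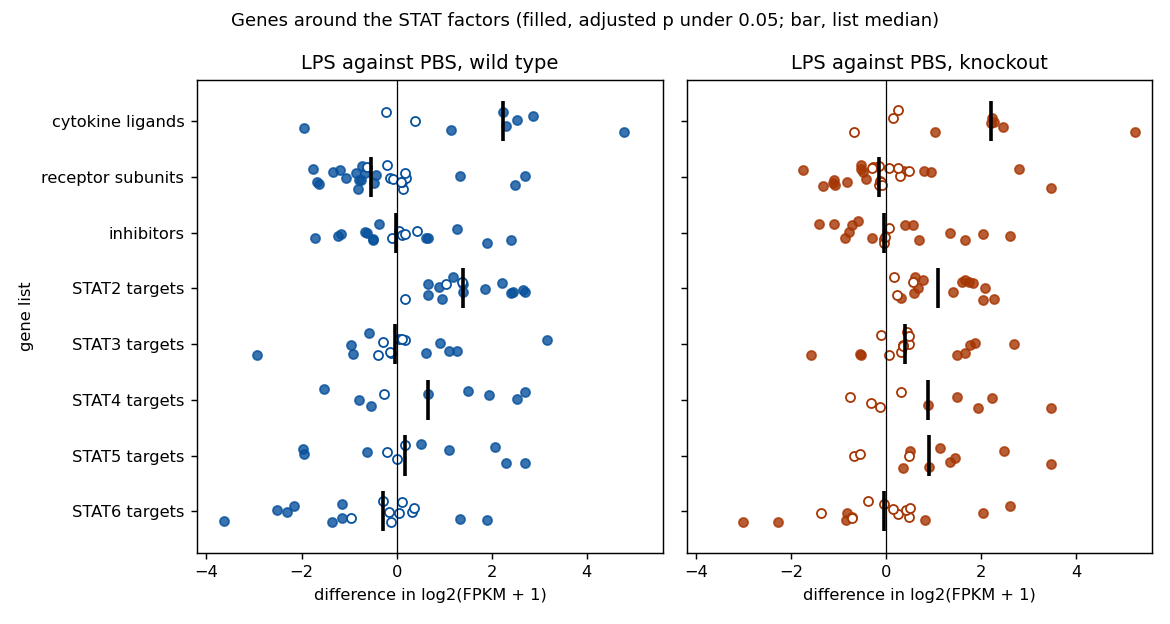
Difference in log2(FPKM + 1), LPS less PBS, of each tested gene of the 8 lists in wild type (left) and the knockout (right); filled points have an adjusted p under 0.05 by limma and the black bar is the list median. Ligands and STAT2 targets lie mostly to the right of 0 in both genotypes (medians 2.23 and 1.39 in wild type), and the other lists hold points on either side.

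Among target genes the STAT2 list moved most evenly. Of 16 genes 13 rose and 0 fell in each genotype, with medians of 1.39 in wild type and 1.09 in the knockout. Over all genes 24.8% rose in wild type and 19.9% in the knockout. Isg15, the ubiquitin-like interferon product, went from 91.2 ± 29.9 to 488 ± 30.7 FPKM in wild type, Oasl1 from 21.8 ± 8.0 to 142 ± 15.8 FPKM and Ifi44 from 0.493 ± 0.354 to 8.34 ± 0.624 FPKM. Ifi44 averaged under 1 FPKM in both PBS groups and passed the filter through its LPS libraries, so its rise is no independent support. All 16 listed genes were tested. Stat2 itself is not in this list.

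STAT3 targets were mixed, with 5 of 16 higher and 4 lower in wild type (median -0.03) and 5 higher and 3 lower in the knockout (median 0.40). For this list and the next, the shares of all genes were 24.8% higher and 37.4% lower in wild type. In the knockout they were 19.9% and 33.3%. Lcn2, an iron-scavenging acute phase protein, went from 183 ± 94.4 to 1500 ± 325 FPKM in wild type, and Cebpd, a transcription factor, from 14.4 ± 3.0 to 32.2 ± 6.17 FPKM. Fos fell from 49.1 ± 32.2 to 4.47 ± 0.107 FPKM. STAT6 targets had 2 of 17 higher and 7 lower in wild type (median -0.29) and 3 higher and 5 lower in the knockout (median -0.04). Those that rose in the knockout included Socs1, from 9.43 ± 1.37 to 64.3 ± 23.8 FPKM, and Ccl22, a chemokine, from 11.6 ± 2.18 to 52.7 ± 21.7 FPKM. Their log2 changes were 2.60 and 2.03 (limma adjusted p = 1.23e-05 and 0.00121). Arg1, the arginase of alternatively activated macrophages, fell from 415 ± 197 to 68.8 ± 30.1 FPKM in wild type and from 570 ± 119 to 81.0 ± 53.9 FPKM in the knockout. Chil3, a chitinase-like secreted protein, went from 213 ± 161 to 13.1 ± 1.31 FPKM and Clec10a, a lectin, from 22.4 ± 6.81 to 3.80 ± 1.53 FPKM in wild type. In the knockout Chil3 (135 and 68.6 FPKM; limma adjusted p = 0.0921) and Clec10a (11.3 and 6.37 FPKM; limma adjusted p = 0.112) did not pass, and the treatments overlapped. The difference between the LPS responses did not pass for either gene (limma adjusted p = 0.481 and 0.384). A call in wild type alone therefore does not show a difference between the genotypes.

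STAT5 targets had 5 of 11 higher and 3 lower in wild type (median 0.17) and 8 higher and 0 lower in the knockout (median 0.89). Ccnd2, a cyclin, rose from 62.2 ± 25.9 to 297 ± 46.1 FPKM in wild type, and Id1 fell from 16.9 ± 6.4 to 3.45 ± 0.822 FPKM. STAT4 targets had 5 of 9 higher and 3 lower in wild type (median 0.66) and 5 higher and 0 lower in the knockout (median 0.88). Ifng, which is also in this list, passed the filter through its LPS libraries. Beside these 2 lists, 24.8% of all genes were higher and 37.4% lower in wild type, and 19.9% and 33.3% in the knockout. Tbx21, the T-bet factor of type 1 lymphocytes, rose from 2.14 ± 0.602 to 11.2 ± 2.73 FPKM in wild type, and Il18rap, a chain of the IL-18 receptor, fell from 14.1 ± 6.1 to 3.97 ± 0.812 FPKM. Between the genotypes 1 of the 111 genes passed under PBS, Egr2, and 0 passed under LPS, against 0.112% and 0% of all genes. At an unadjusted p under 0.05 there were 18 of the 111 under each treatment, against 897 and 744 of all 9841 genes. For the difference of the LPS responses 1 of the 111 passed, again Egr2, against 0.0406% of all genes. Of the 11 STAT5 targets 0 passed. At an unadjusted p under 0.05 there were 19 of the 111, against 946 of all genes. Unlike counts in the 2 genotypes, for the 111 genes or a list, therefore do not show unlike responses.

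Markers of several cell types moved under LPS, and others were mixed. Over all genes tested 24.8% rose and 37.4% fell in wild type, and 19.9% rose and 33.3% fell in the knockout. Of 11 large peritoneal macrophage markers 6 fell and 2 rose in wild type, and 8 fell and 1 rose in the knockout. In wild type 6 of 8 tested neutrophil markers fell under LPS and 0 rose, with sums of 1957 to 3264 FPKM under PBS and 155 to 284 FPKM under LPS, where Elane was at 0. In the knockout 2 fell and 1 rose, with sums of 1200 to 3035 FPKM and 719 to 2686 FPKM. Monocyte markers fell for 9 of 10 genes in wild type and 6 of 10 in the knockout, with sums of 1989 to 2931 FPKM under PBS and 890 to 1418 FPKM under LPS. Most of that sum was a single gene, Fn1. Its means were 1662 FPKM in wild type and 2136 FPKM in the knockout under PBS, and 958 and 893 FPKM under LPS. B cell markers fell for 6 and 7 of 10, with sums of 604 to 1235 FPKM and 180 to 418 FPKM. Of 5 tested dendritic cell markers 2 rose and 1 fell in wild type, and 4 rose and 1 fell in the knockout. Their summed level of 113 to 136 FPKM under PBS and 249 to 374 FPKM under LPS was mostly that of Bst2, which interferon also induces (71.8 to 198 FPKM in wild type), while Itgax fell from 9.15 to 1.13 FPKM in wild type and from 5.34 to 0.816 FPKM in the knockout. Natural killer cell markers had 3 of 6 lower in wild type and 1 higher and 1 lower in the knockout, with sums of 16.5 to 67.0 FPKM under PBS and 19.6 to 30.9 FPKM under LPS that overlapped. Mast cell markers had 2 of 8 higher and 1 lower in wild type and 0 higher and 1 lower in the knockout. The part of these cell types in the changes of Stat6, Stat5b and Jak3 or of any list was not tested.

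The genes most like each member over the 12 libraries, by Pearson correlation of log2(FPKM + 1) among 6635 genes of at least 5 FPKM on average, give the shape of its pattern and are a description, since all points share the 4 groups and the same libraries. For Stat2 they were Parp14, Herc6 and Slfn8 (r of 0.988 to 0.989), for Stat3 Cd83, Dusp2 and Hivep1 (0.952 to 0.973) and for Stat6 Dnajc14, Ube2b and Bsdc1 (0.991 to 0.994). Stat5b lay closest to Numa1, Zfp646 and Fkbp8 (0.985 to 0.991), and Stat5a to Tmem87a, Dnajc5 and Hmgn3 (0.869 to 0.929). Jak3 lay closest to Sh3bgrl3, Actb and Twsg1 (0.956 to 0.974), Jak1 to Rab8b, Ifit2 and Slfn5 (0.842 to 0.911), Jak2 to Ptpn1, Sav1 and Pik3r5 (0.875 to 0.903) and Stat4 to Lpcat4, Dnajc7 and Ap1s3 (0.885 to 0.916). The closest gene reached at least 0.973 for Stat2, Stat3, Stat5b, Stat6 and Jak3 and at most 0.929 for the other 4. Among the members Stat3 and Jak1 varied together within groups, with a correlation of their deviations from the group means of 0.897 over the 12 libraries, against 0.525 when the groups were not removed. This pair is named because its within-group value was the highest of all pairs of members. Wild-type PBS replicate 3 and wild-type LPS replicate 2 were the lowest of their groups for both genes.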

How the data were processed

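RNA of peritoneal lavage cells was sequenced in 12 libraries, 4 groups of 3, per the labels' protocols. Titles of the knockout libraries read wild type, while their codes, descriptions and characteristics read lactoferrin knockout, and the latter were used. The authors deposited 1 value per gene and library without stating the unit. The submitters' processing notes list TopHat, Cufflinks, HTSeq, DESeq and GRCm38 without role or order. Since the deposited values are not whole and have no common total, and since Cufflinks is listed, they were taken as FPKM. The sources used here give neither the annotation nor the use of strand. Of 21878 rows 27 had symbols turned into dates and were left out.

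FPKM does not carry read numbers, and no counting interval is given. Relative depth was estimated from the most common ratio of low values, which held 9.30% to 18.3% of gene pairs within 2%, so whole reads were not recovered. The 9841 genes that averaged 1 FPKM or more were tested with limma 3.58.1 in R 4.3.3 on log2(FPKM + 1), which understates changes of low genes. A mean per group was fitted to all 12 libraries, with trended, robust variance shrinkage. Tests were two-sided with Benjamini-Hochberg adjustment over all genes of a contrast and a threshold of 0.05. On simulated data with 100 genes changed by 1 (log2), 85, 90, 87, 96 and 70 were recovered for LPS in wild type, LPS in the knockout, knockout under PBS, knockout under LPS and the difference of responses. Each run also held 100 genes changed by 2, and false calls were 9, 9, 6, 9 and 6. The simulated noise was independent and normal, without outlying libraries or cell mixtures. Benjamini-Hochberg adjustment is less strict where more genes change. In the data the genotype comparisons called 11 genes under PBS and 0 under LPS, and the difference of responses called 4. For these comparisons the simulated recoveries can therefore be too high. Changes smaller than 1, such as the genotype differences of the members, were not simulated.

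The members and gene lists were chosen with earlier results of these data known. Named genes were the members, Ltf, up to 4 called genes per list and contrast with the largest change and at least 5 FPKM, or else 2 by level, and the 3 genes most like each member. Of these, the report gives a selection of the list genes. Those shown for overlaps were taken from the annotation. Alternatives were other pseudocounts, filters, scalings, weights, fits of only the groups compared, a replicate block, and leaving out libraries. Positions came from GENCODE and promoters from RefSeq, both on GRCm38. Figures used Python 3.11.15 with matplotlib 3.10.9.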

Additional observations from a re-analysis of the deposited data

Results flagged for a closer look

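Of 55 named genes checked for a difference between the genotypes' LPS responses, 2 stood out. Egr2, a transcription factor that IL-4 induces, had an LPS response that differed between the genotypes by 1.33 ± 0.19 (log2, SE; limma adjusted p = 0.0446). Egr2 went from 5.49 ± 0.722 to 0.442 ± 0.034 FPKM in wild type and from 1.81 ± 0.479 to 0.570 ± 0.110 FPKM in the knockout (SD, n = 3). Under PBS it was lower in the knockout by a log2 difference of -1.21 ± 0.13 (limma adjusted p = 0.0111). Both calls were lost under some alternatives. With the difference of responses 4 of all genes were called, and 0, so not Egr2, with the replicate block or without the 2 libraries rich in erythroid transcripts. Leaving out wild-type PBS replicate 1 or any wild-type LPS library also gave 0. So did leaving out knockout PBS replicate 2 or 3 or knockout LPS replicate 1 or 3. With no filter 1 gene was called and it was lower, so not Egr2. Under LPS both Egr2 means were under 1 FPKM and differed by 0.12 (log2), so the difference of responses was mostly the PBS difference. Under PBS 11 were called, and 0 without the 2 erythroid-rich libraries, without knockout PBS replicate 2 or 3, or in a fit of only these groups.

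Cish, a feedback inhibitor that STAT5 induces, stood out because the genotypes lay in opposite order under the 2 treatments without overlap. T cell and natural killer cell markers were also lower in the knockout under PBS, with medians of -0.79 and -0.84 (log2), and their part in the values of Cish was not tested. Under PBS the knockout libraries were at 2.13 to 5.03 FPKM, all below the wild-type libraries at 7.94 to 12.7 FPKM. Under LPS the knockout libraries were at 9.29 to 10.98 FPKM, all above the wild-type libraries at 5.16 to 8.40 FPKM. Neither difference passed the test (limma adjusted p = 0.0667 under PBS and 0.655 under LPS), and 13.4% and 15.4% of all genes tested were free of overlap in these comparisons. The difference of the LPS responses was 1.96 ± 0.33 (log2, SE) and did not pass the adjusted test (limma adjusted p = 0.0732).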

How the results depend on the processing

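The members called were 6 for LPS in wild type, 5 to 7 over the alternatives, and 5 for LPS in the knockout under every alternative. They were 0 between the genotypes and for the difference of responses under every alternative. Stat2, Stat3, Stat5b, Stat6 and Jak3 kept their LPS calls in both genotypes in all alternatives run. Of 981 alternative log2 values of members 926 kept direction and side of the threshold, 11 lost a call, 5 gained one and 39 changed sign, and all 72 alternative STAT shares moved by less than 1 SD. The lost calls were all of Stat5a for LPS in wild type, which was 0.32 with no filter (limma adjusted p = 0.0612) and 0.17 with array weights (limma adjusted p = 0.184). Calls gained were Stat4 in wild type with array weights (-0.38) and Jak1 in wild type with upper-quartile scaling (0.44) or without some libraries. The sign changes were among values near 0. For LPS in the knockout Jak1 became 0.062 with median-of-ratios scaling, 0.098 with upper-quartile scaling and 0.005 with array weights. Between the genotypes Jak2 under LPS became 0.009 and 0.001 with these scalings, and Jak3 under PBS became 0.006 with the upper quartile. Array weights gave -0.001 for Stat5a and -0.075 for Jak2 under PBS, 0.104 for Stat4 and 0.061 for Stat5a under LPS, and differences of responses of 0.145 for Stat4, 0.061 for Stat5a and 0.099 for Jak3. Without the 2 libraries rich in erythroid transcripts the Stat3 difference of responses was -0.024. Leaving out single libraries gave -0.112 to 0.041 for Jak1 (LPS in the knockout). Under PBS it gave genotype differences of -0.036 to 0.312 for Stat2, -0.107 to 0.072 for Stat4, -0.178 to 0.188 for Jak2 and -0.194 to 0.177 for Jak3. Under LPS it gave -0.214 to 0.092 for Stat4 and -0.181 to 0.129 for Jak2. Differences of responses ranged over -0.243 to 0.104 for Stat2, -0.012 to 0.204 for Stat3, -0.178 to 0.132 for Stat4, -0.214 to 0.153 for Jak2 and -0.291 to 0.081 for Jak3. The cause of these changes was not tested. Over all genes, upper-quartile scaling moved the median LPS change to 0.00 in wild type and -0.01 in the knockout and the share of higher calls from 39.9% to 50.6% and from 37.4% to 49.9%. The 11 genes called under PBS became 4 with a filter of 5 FPKM, 50 with array weights, 3 with the block, 0 in a fit of only these groups and 0 to 30 without single libraries. Array weights called 1070 genes between the genotypes under LPS, where 744 had an unadjusted p under 0.05 and 0 were called, against 2 with no filter and 0 to 29 without single libraries (29 without knockout LPS replicate 2). For the difference of responses the 4 called became 8 with either other scaling, 2 with 5 FPKM added, 1 with either other filter, 225 with array weights, 0 with the block or without the erythroid-rich libraries and 0 to 48 without single libraries (48 without wild-type PBS replicate 3). Same-numbered libraries did not deviate together (18 pairs, correlations -0.25 to 0.19). The labels do not say whether the numbers pair samples, and deviations within groups of 3 cannot settle it. With the replicate block the members called were 6, 5, 0, 0 and 0 in the 5 comparisons, and no member's call changed. Groups of 3 and unknown read numbers limit what can be seen of Stat4, Stat5a and Stat5b, the members of lowest level.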
